A study of Homo sapiens with 6 samples.

Results

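The DMRT genes DMRT1, DMRT2 and DMRT3 were examined in DLD1, an established line of human colorectal adenocarcinoma cells, infected with lentivirus that expressed either a control short hairpin RNA (shRNA) or an shRNA against CDKL1. A short hairpin RNA is cut in the cell to a small RNA that directs breakdown of the matching transcript, and CDKL1 encodes a serine/threonine kinase related to the cyclin-dependent kinases. Each group held 3 samples, with total RNA of each on 1 Affymetrix array, and the cells of both groups carried a lentivirus. For the virus dose, the time after infection and any selection, no value was given in the sources used here. All probe sets annotated with exactly 1 gene symbol that named a member were taken, which gave 9 of 49293 non-control probe sets for these 3 of 18132 genes: 3 for DMRT1, 4 for DMRT2 and 2 for DMRT3. DMRT1 was chosen by its large difference in this same comparison, and the other two were added as its relatives, so the differences of all 9 probe sets are given below as a description, with no test.

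DMRT proteins are transcription factors that bind DNA through the DM domain, a zinc-binding module shared with the sex-determination factors doublesex of flies and mab-3 of worms. DMRT1 maintains the identity of Sertoli cells in the testis and controls when male germ cells stop dividing by mitosis and enter meiosis. DMRT2 acts in the somites, the embryonic blocks that form vertebrae and muscle, and DMRT3 marks interneurons of the spinal cord that coordinate limb movement. In the human genome these genes lie side by side near the end of the short arm of chromosome 9, in the order DMRT1, DMRT3, DMRT2. None of them is a known marker of colorectal epithelium.

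The 250 bases before the annotated starts of the 3 neighbouring genes are shown because 1 probe set of one gene differed widely between the groups while those of the adjacent genes did not. They come from the RefSeq promoter table of GRCh38.p14, in which all 3 genes were matched by symbol, and all run on the plus strand. DMRT1 has 2 starts in that table and both are given, at chr9:841447-841696 and, farther into the gene, at chr9:843039-843288. The DMRT3 window is chr9:976405-976654, and the DMRT2 window, the most upstream of its 3, is chr9:1050107-1050356. Capitals mark each CpG dinucleotide, the target of DNA methylation in human cells.
DMRT1, upstream start: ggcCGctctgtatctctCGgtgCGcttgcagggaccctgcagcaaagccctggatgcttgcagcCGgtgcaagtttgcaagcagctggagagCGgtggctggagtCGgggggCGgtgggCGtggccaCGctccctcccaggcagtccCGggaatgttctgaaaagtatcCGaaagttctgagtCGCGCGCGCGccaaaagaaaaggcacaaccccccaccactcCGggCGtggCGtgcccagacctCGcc
DMRT1, internal start: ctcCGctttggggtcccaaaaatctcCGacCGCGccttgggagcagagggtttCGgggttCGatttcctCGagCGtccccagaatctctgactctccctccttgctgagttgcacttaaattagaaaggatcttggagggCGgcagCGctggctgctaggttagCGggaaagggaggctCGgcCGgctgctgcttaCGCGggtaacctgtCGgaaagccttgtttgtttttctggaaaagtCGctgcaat
DMRT3: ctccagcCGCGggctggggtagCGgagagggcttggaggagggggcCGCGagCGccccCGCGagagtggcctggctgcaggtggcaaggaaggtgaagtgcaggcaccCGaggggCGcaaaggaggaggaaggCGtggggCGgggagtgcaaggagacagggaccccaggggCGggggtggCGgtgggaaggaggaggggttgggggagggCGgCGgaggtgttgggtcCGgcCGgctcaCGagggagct
DMRT2: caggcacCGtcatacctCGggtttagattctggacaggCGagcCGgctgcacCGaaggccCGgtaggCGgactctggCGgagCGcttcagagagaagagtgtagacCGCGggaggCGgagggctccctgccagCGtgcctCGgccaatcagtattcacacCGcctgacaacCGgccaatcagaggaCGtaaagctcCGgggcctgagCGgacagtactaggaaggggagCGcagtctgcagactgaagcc
The DMRT1 windows hold 20 and 17 CpG dinucleotides, the DMRT3 window 19 and the DMRT2 window 20, against a median of 11 over the 35116 promoter windows of the same length. The 2 further DMRT2 windows, which are not shown, hold 7 and 10. G and C bases make up 65.2% and 56.4% of the DMRT1 windows, 73.6% of the DMRT3 window and 63.6% of the DMRT2 window. The GC box GGGCGG, counted on both strands, is found 1 time in each DMRT1 window, 3 times in the DMRT3 window and 0 times in the DMRT2 window, and 42.6% of all windows hold it. CCAAT, on either strand, occurs 2 times in the DMRT2 window and 0 times in the other three, against 32.0% of all windows. None of the 4 windows holds TATAAA on either strand (10.7% of all windows do) or ACANTGT, whose letters read the same on both strands and form the core that DM domains prefer (4.49% of all windows). These are letter matches only, and DNA methylation was not measured.

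Expression was given on a log2 scale, as normalised between arrays by the authors with RMA, so 1 unit is a doubling. CDKL1 itself was read at 4.51, 4.42 and 4.17 in control arrays and at 4.25, 4.20 and 4.08 in CDKL1 shRNA arrays. The groups overlapped and the log2 difference of -0.19 did not pass (limma, adjusted p = 0.241 over all probe sets), at a level within the range of background controls. The arrays therefore did not show the knockdown, and the groups are called by their labels. All 13 colorectal epithelium markers had means above 4.92, the highest mean among background controls whose probes hold 10 to 16 G or C bases. That mark alone does not separate cell types. Markers of testis somatic cells (5 of 7), germ cells (2 of 5), fibroblasts (3 of 6) and leukocytes (2 of 4) also lay above it. The colorectal list median was 10.25 to 10.35 in control arrays and 10.70 to 10.73 in CDKL1 shRNA arrays. Such a median is the level of 1 middle gene on each array, so it does not measure a shift of the whole list. The dimmest marker of that list was VIL1 at a mean of 5.57. Of these 13 markers, 2 passed higher and 2 lower. KRT20 rose by 0.52 and TFF3 by 0.43, while LGR5 fell by 0.36 and VIL1 by 0.57 (limma, adjusted p = 0.000746, 0.00597, 0.00657 and 0.019 over genes). The others did not pass, and no change of cell state is read from these 4 genes. VIL1 lost its call without control replicate 1 or control replicate 3, and none of the 4 passed with the ACTB covariate described next (adjusted p of 0.0651 to 0.507), in which KRT20 was at 0.49, TFF3 at 0.32, LGR5 at -0.44 and VIL1 at -0.16. The ACTB control probe sets gave, as a sign of RNA integrity, a log2 excess of 3' over 5' signal that was 1.40, 1.41 and 1.39 in control arrays and 1.52, 1.73 and 1.55 in CDKL1 shRNA arrays (exact two-sided permutation p = 0.1, the smallest that 3 arrays against 3 allow). In this measure every CDKL1 shRNA array stood above every control array, so the covariate cannot be fully told apart from the shRNA. Fits with it have wider errors, and a lost call in them does not show that RNA integrity made the difference. The part of this measure in the results below was not tested beyond the fits that carried it as a covariate. For the GAPDH control probe sets the same excess was 0.187, 0.199 and 0.222 in control arrays and 0.246, 0.297 and 0.281 in CDKL1 shRNA arrays. There too the groups did not overlap (exact two-sided permutation p = 0.1). GAPDH was not used as a covariate.

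DMRT1 probe set 11727900_at, annotated to a RefSeq transcript of the gene, gave log2 levels of 5.74, 5.64 and 5.44 in control arrays and 8.04, 8.11 and 7.98 in CDKL1 shRNA arrays. The groups were far apart, with every CDKL1 shRNA array above every control array, and the range within a group was 0.31 in control and 0.13 in CDKL1 shRNA arrays. The means were 5.61 ± 0.16 and 8.04 ± 0.07 (SD, n = 3 each), a log2 difference of 2.43 (SE 0.08, 95% interval 2.24 to 2.63), or 5.40-fold with an interval from 4.71-fold to 6.18-fold. This was the rank 2 difference, in either direction, of the 49293 probe sets. In bulk RNA a change in all cells and a change in a fraction of them cannot be told apart.

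The other DMRT1 probe sets, both annotated to GenBank records, did not show this difference. Probe set 11751838_x_at gave 4.06, 4.04 and 3.82 in control arrays and 3.87, 3.93 and 3.78 in CDKL1 shRNA arrays, a difference of -0.11 (SE 0.08, 95% interval -0.30 to 0.07). Probe set 11762642_at gave 4.63, 4.96 and 4.91 against 4.64, 4.83 and 5.18, a difference of 0.05 (SE 0.15, 95% interval -0.29 to 0.39). The groups overlapped in both, and neither interval reaches the lower bound of 11727900_at. The suffix _x marks a probe set with probes that may bind other transcripts. Which exons each of the probe sets reads was not analysed here.

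Background was judged from 23 background controls on the same arrays, which differ in the number of G and C bases of their probes, a number not given for the DMRT probes. On the control arrays 11727900_at lay above 15, 15 and 14 of the 23, and on each CDKL1 shRNA array above 20. In both groups it was above the 7 of them with 10 to 16 G or C, which spanned 2.95 to 4.98 over the arrays. It stood within the span of the 9 with 17 to 25, which ran from 5.31 to 10.82. Those 9 differed between the groups by -0.21 to -0.07 on the log2 scale, opposite in sign to DMRT1, and all 23 lay between -0.21 and 0.02. DMRT1 probe set 11751838_x_at was above 12 background probe sets on each array and 11762642_at above 13, or 14 on CDKL1 shRNA replicate 3. Their means stood at percentiles 10.1 and 22.5 of all probe set means, so a transcript at a low level would be hard to see in them.

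**Figure D1:**
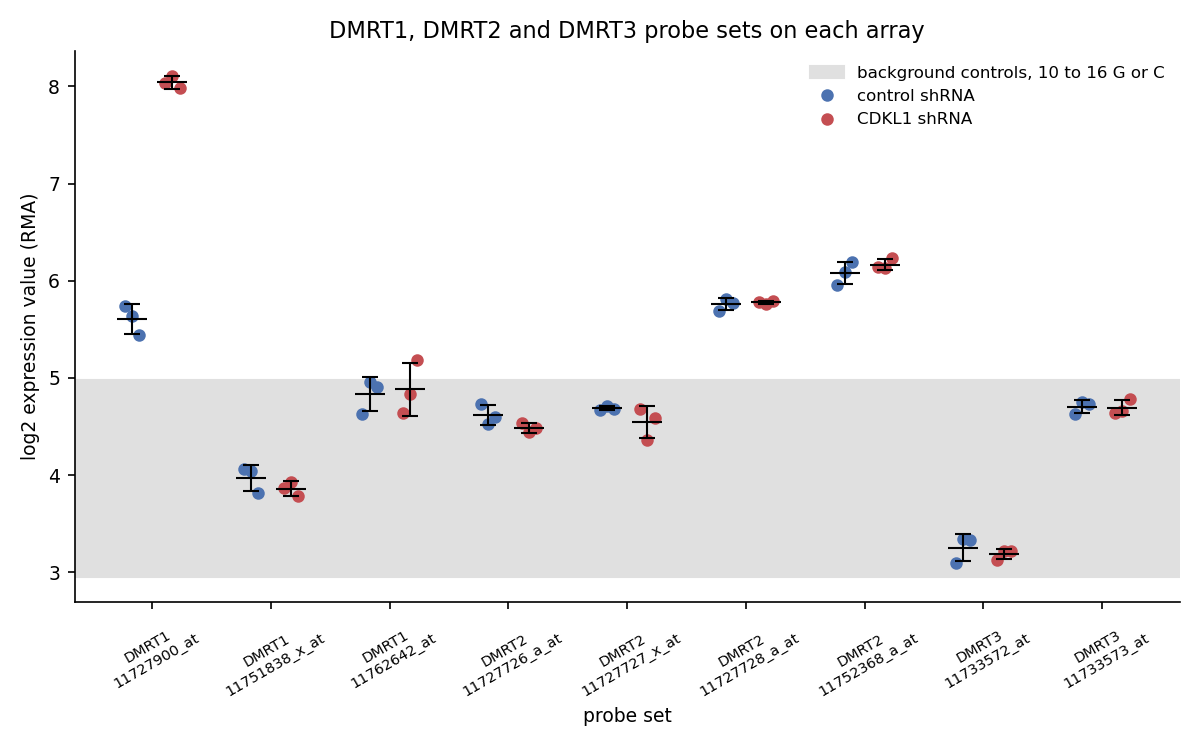
Log2 expression value (RMA) of the 9 DMRT1, DMRT2 and DMRT3 probe sets on each array, in control shRNA (blue) and CDKL1 shRNA (red) groups; bars are the mean ± SD of 3 arrays and the grey band is the span of the 7 background controls with 10 to 16 G or C. Only DMRT1 11727900_at, from 5.61 to 8.04, has groups that do not overlap.

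DMRT2 was read by 4 probe sets, of which 2 lay above the grey background range and 2 within it. Probe set 11752368_a_at gave 5.96, 6.09 and 6.19 in control arrays and 6.14, 6.13 and 6.23 in CDKL1 shRNA arrays, a difference of 0.09 (SE 0.07, 95% interval -0.08 to 0.25). Probe set 11727728_a_at, annotated to a RefSeq transcript, gave 5.69, 5.81 and 5.77 against 5.78, 5.76 and 5.79, a difference of 0.02 (SE 0.05, 95% interval -0.10 to 0.13). The arrays of both groups were interleaved in each case. The 2 dimmer ones are annotated to the same GenBank record and so may not be separate views of the gene. Whether they share probes was not analysed here. Probe set 11727726_a_at gave 4.73, 4.53 and 4.60 against 4.54, 4.44 and 4.48, a difference of -0.13 (SE 0.07, 95% interval -0.28 to 0.02). Probe set 11727727_x_at gave 4.67, 4.71 and 4.68 against 4.68, 4.36 and 4.59, a difference of -0.15 (SE 0.08, 95% interval -0.34 to 0.05), and its lowest value was on CDKL1 shRNA replicate 2, the array with the highest ACTB difference.

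DMRT3, the immediate neighbour of DMRT1, was read within or near the background range on every array. Probe set 11733573_at gave 4.63, 4.75 and 4.73 in control arrays and 4.64, 4.66 and 4.78 in CDKL1 shRNA arrays, a difference of -0.01 (SE 0.06, 95% interval -0.15 to 0.13). Probe set 11733572_at, annotated to a RefSeq transcript, gave 3.09, 3.34 and 3.33 against 3.13, 3.22 and 3.22, a difference of -0.06 (SE 0.08, 95% interval -0.24 to 0.12). The groups overlapped in both, and the mean of 11733572_at stood at percentile 1.95 of all probe sets.

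Of the 9 probe sets of the 3 genes, 4 had a positive and 5 a negative difference. Leaving out 11727900_at, the remaining 8 lay between -0.15 and 0.09, and their 95% intervals had lower ends down to -0.34 (DMRT2 11727727_x_at) and upper ends up to 0.39 (DMRT1 11762642_at). A change of array signal above 1.31-fold lay outside all 8 intervals. Only 2 of these 8 had means above 4.92, and RMA pulls changes of dim probe sets towards 0. The intervals therefore do not bound the change of a transcript. The limma fit called 12.6% of all 49293 probe sets at an adjusted p under 0.05, and 1 of the 9, the DMRT1 probe set by which the genes were chosen. Its groups did not overlap, as was the case for 32.9% of all. Nothing is read from these counts, since this contrast chose the members. No probe set was filtered out for a low level, and 3 of the 9 had means above 4.92.

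The gap between the DMRT1 probe sets was set beside that of other genes, a comparison chosen after the values were seen. Among 6995 genes with at least 3 probe sets, 34 had a probe set with a log2 difference of at least 1 in size. In 23 of these 34 a second probe set differed by at least 0.5, and in 6, DMRT1 among them, every other probe set stayed within 0.2 of 0. Beside DMRT1 the 6 were MSL1, ATG14, ADGRF1 and UBE2K, with largest differences of 1.20, 1.19, 1.17 and -1.02, and PLEKHA8 at -1.15. The gap between the largest and the second largest difference in size was 2.32 for DMRT1, at rank 1 of the 6995 genes, and 1.05 for MSL1, the next of these 6. This rank rests on the same difference by which DMRT1 was chosen, and its other probe sets lay near background. Nothing is read from it.

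The further genes of the DM-domain family were read by 6 probe sets of 1 symbol. DMRTA2, a factor of forebrain development, was read by 11735485_s_at at 8.83, 8.79 and 8.75 in control arrays and 9.01, 8.98 and 8.92 in CDKL1 shRNA arrays. The groups did not overlap, and the difference of 0.18 (SE 0.05) passed when 1 probe set per gene was tested (limma, adjusted p = 0.0374 over 18132 genes) and missed the threshold over all probe sets (adjusted p = 0.0583). The other DMRTA2 probe set differed by 0.00 (SE 0.12), and the call was lost without any 1 of the 6 arrays (adjusted p of 0.0506 to 0.123). DMRTB1, a meiosis regulator of the testis, differed by 0.06 (SE 0.07), DMRTA1 by 0.06 (SE 0.05) at a level near 3.09, and DMRTC2, which is expressed in male germ cells, by -0.15 and -0.13 in its 2 probe sets. In all, 1 of the 4 measured genes rose and 0 fell, against 8.97% and 7.79% of all genes. DMRTC1 and DMRTC1B share 1 probe set and are not named from it.

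**Figure D2:**
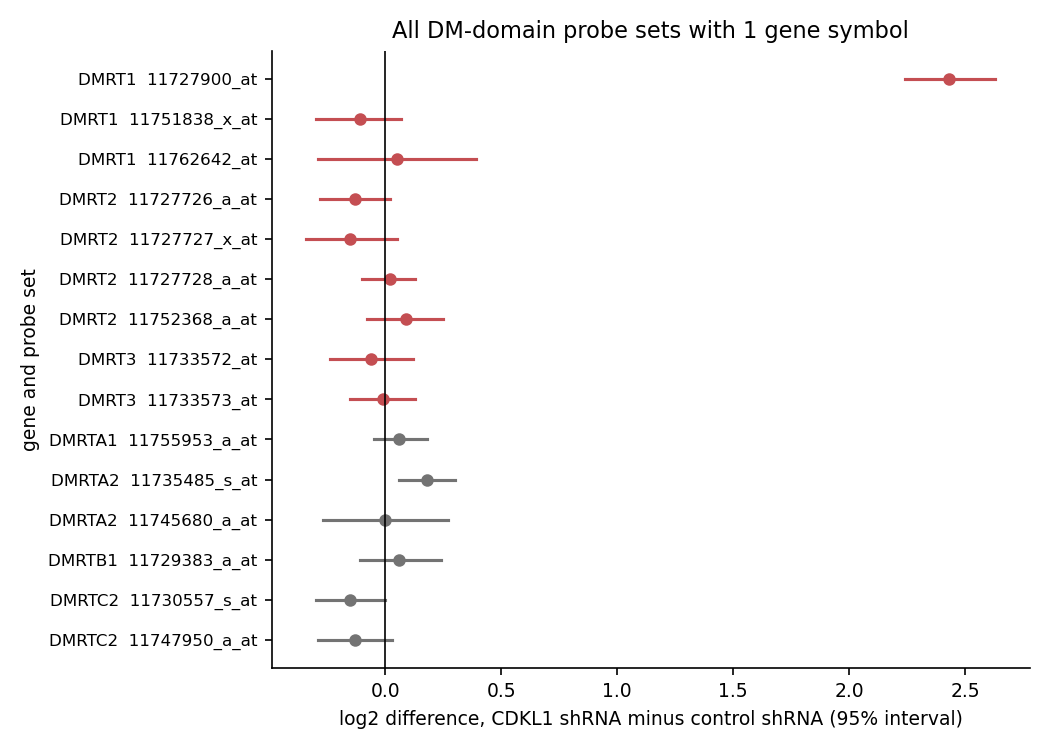
Log2 difference, CDKL1 shRNA minus control shRNA, of each DM-domain probe set with 1 gene symbol; points are differences between means of 3 arrays and lines are 95% intervals from limma, in red for DMRT1, DMRT2 and DMRT3 and grey for the other family members. DMRT1 11727900_at stands at 2.43 and the other 14 between -0.15 and 0.18.

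The question of whether genes around DMRT1 differed as well was put to the 10 protein-coding genes on either side of the cluster in RefSeq order, of which 13 of 20 were measured. By their brightest probe sets 0 rose, 1 fell and 12 did not pass, with a median log2 difference of 0.063, against 8.97% higher, 7.79% lower and a median of -0.014 over all genes. SLC1A1, a glutamate and cysteine transporter gene, was read at 10.04, 10.10 and 10.15 in control arrays and 9.74, 9.78 and 9.82 in CDKL1 shRNA arrays. It fell by 0.32 on the log2 scale (SE 0.05, limma adjusted p = 0.00592 over genes), was lower in every CDKL1 shRNA array, and did not pass with the ACTB covariate, where the difference was again -0.32 with a wider error (SE 0.10, adjusted p = 0.159). Before DMRT1, all probe sets of the measured genes had positive differences, and none passed. These were 0.21 in FOXD4, 0.06 to 0.32 in the 5 of DOCK8, and 0.11 and 0.15 in KANK1. The genes after DMRT2 went both ways. By brightest probe set KANK1, the nearest measured gene before DMRT1 and a regulator of actin, differed by 0.15 (SE 0.05, adjusted p = 0.0852). SMARCA2, a chromatin-remodelling ATPase gene after DMRT2, differed by -0.13 (SE 0.05, adjusted p = 0.139). Over all 38 probe sets of these neighbours the differences lay between -0.47 and 0.39, and 3 passed higher and 2 lower (limma over all probe sets). The 3 were 2 of 3 probe sets of the co-chaperone gene CDC37L1 (0.27 and 0.26) and 1 of 5 of GLIS3 (0.39), a zinc finger factor gene. The 2 were 1 of 8 of SMARCA2 (-0.22) and 1 of 2 of SLC1A1, the probe set above. The other SLC1A1 probe set was at -0.14 (SE 0.07, limma adjusted p = 0.241 over all probe sets) and did not pass.

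**Figure D3:**
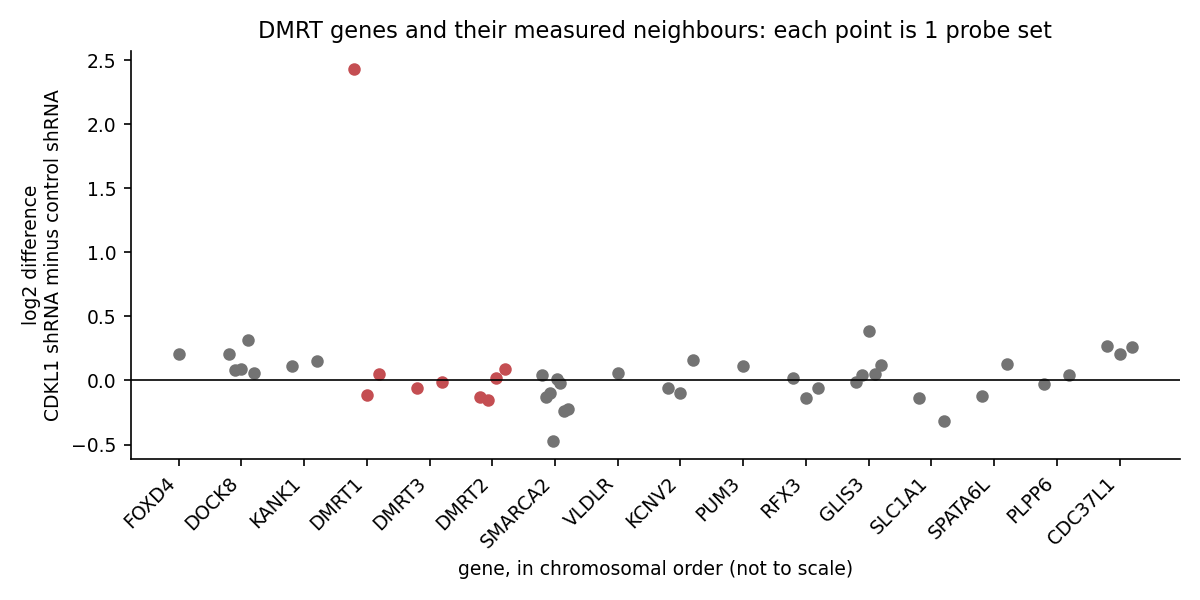
Log2 difference, CDKL1 shRNA minus control shRNA, of each probe set of the DMRT genes (red) and of the 13 measured neighbours (grey), in chromosomal order and not to scale. All neighbour probe sets lie between -0.47 and 0.39, below the 2.43 of DMRT1 11727900_at.

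The next lists hold genes that work with DMRT1 in the gonad, and their counts are read against the 8.97% of all genes that passed higher and the 7.79% that passed lower. In the list of gonad development and sex determination 38 of 41 genes were measured, 0 rose, 4 fell and 34 did not pass, with a median log2 difference of -0.053. The 4 were MAP3K1 (-0.24, SE 0.06), a kinase gene of testis determination, the Hedgehog receptor gene PTCH1 (-0.23, SE 0.04), the testis growth factor gene FGF9 (-0.20, SE 0.05) and GATA6 (-0.15, SE 0.04), with adjusted p from 0.0126 to 0.0431 (limma over genes). The 5 probe sets of PTCH1 ran from -0.23 to 0.07 and the 2 of FGF9 from -0.20 to 0.04, and by the mean of its probe sets neither passed (-0.11, adjusted p = 0.195, and -0.08, adjusted p = 0.31). Of the background controls, the 9 with 17 to 25 G or C differed by -0.21 to -0.07. That span holds the falls of FGF9 and GATA6 and ends near those of MAP3K1 and PTCH1. A shared shift was not tested. SOX9, the Sertoli cell factor that DMRT1 helps to maintain and that colon epithelium also expresses, differed by 0.03 (SE 0.05), and FOXL2, the ovarian factor that DMRT1 opposes in the testis, by 0.14 (SE 0.12) from a level of 3.38 in the background range. The Sertoli cell hormone gene AMH differed by -0.10 (SE 0.07). None of these 3 passed.

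In the germ cell and meiosis list all 37 genes were measured, of which 2 rose, 3 fell and 32 did not pass, with a median log2 difference of -0.003. REC8, a cohesin of meiotic chromosomes, was read at 6.07, 6.00 and 5.99 in control arrays and 6.28, 6.25 and 6.46 in CDKL1 shRNA arrays and rose by 0.31 (SE 0.06, limma adjusted p = 0.0186). KIT, the receptor of stem cell factor, rose by 0.23 (SE 0.05), from 9.67, 9.70 and 9.60 to 9.87, 9.88 and 9.92. PIWIL4 of the piRNA pathway fell by 0.21, the RNA-binding factor gene DND1 by 0.18 and TFAP2C, a factor of primordial germ cells, by 0.16. These falls lie within the -0.21 to -0.07 by which the 9 background controls with 17 to 25 G or C differed. Whether they share that shift was not tested. STRA8, the meiosis gatekeeper that DMRT1 represses in spermatogonia, differed by 0.08 (SE 0.08) and POU5F1, a pluripotency factor, by -0.26 (SE 0.07, limma adjusted p = 0.0551), and neither passed. The 2 probe sets of POU5F1 stood at -0.26 and 0.13. Of the 5 germ cell markers DDX4, DAZL and SYCP3 stayed at or below 4.92, and the median level of the 5 was 4.13 to 4.14 in control and 4.10 to 4.15 in CDKL1 shRNA arrays. Of 7 markers of testis somatic cells, 0 passed in either direction and DHH and CYP17A1 stayed at or below 4.92, with a list median of 5.72 to 5.92 in control and 5.71 to 5.77 in CDKL1 shRNA arrays. Fibroblast and leukocyte markers, 6 and 4 measured, likewise held 0 called genes (limma, with 0 genes of these other marker lists at an unadjusted p under 0.05), with COL3A1, DCN, LUM, PTPRC and LYZ in the background range.

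Retinoic acid, a vitamin A derivative that drives meiotic entry and whose action DMRT1 limits in the testis, was covered by 18 measured genes of 20. Of these 2 rose, 0 fell and 16 did not pass, with a median log2 difference of 0.0066. DHRS9, a retinol dehydrogenase gene, was read at 6.27, 6.20 and 6.22 in control arrays and 6.64, 6.95 and 6.85 in CDKL1 shRNA arrays. It rose by 0.58 (SE 0.08, limma adjusted p = 0.00372 over genes), and every CDKL1 shRNA array was above every control array. RDH10, which also oxidises retinol, rose by 0.24 (SE 0.06) in its brightest probe set, while its 3 probe sets ran from -0.12 to 0.24 and their mean differed by 0.07 (adjusted p = 0.311). The degrading enzyme gene CYP26B1 (-0.09, SE 0.06) and the receptor gene RARA (-0.18, SE 0.06) did not pass. The 10 probe sets of RARA ran from -0.18 to 0.12. The list for DMRT2 and DMRT3, of somite and spinal interneuron genes, held 0 called genes of 10 (limma, 2 with an unadjusted p under 0.05) and had a median of -0.063, with the muscle factor gene MYF5 at -0.05 (SE 0.17) and PAX3 at -0.03 (SE 0.05).

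Over these 6 lists 13 of 120 measured genes passed, and 16.8% of all genes did. The lists hold many dim genes, with 18 of 37 germ cell genes above 4.92, so these shares are not alike in level. With dim features left out, 3473 of 14900 genes passed. In that fit 6 of 18 germ cell, 4 of 27 gonad, 2 of 16 retinoic acid and 2 of 12 neighbour genes passed. So did 1 of 3 other DM-domain and 0 of 8 somite genes. With 1 array left out in turn, DHRS9 and SLC1A1 passed in all 6 fits, 6 genes passed in some, and DMRTA2, GATA6, FGF9, DND1 and PIWIL4 passed in none. KIT was lost without control replicate 3 or CDKL1 shRNA replicate 3, REC8 without control replicate 2 or control replicate 3, and PTCH1 without control replicate 2 or CDKL1 shRNA replicate 3. MAP3K1, RDH10 and TFAP2C passed without control replicate 1 and were lost without any other 1 array. None of the 13 passed with the ACTB difference as a covariate (limma, 6 with an unadjusted p under 0.05), a fit in which 219 of 18132 genes passed. Their signs were kept in that fit and their errors were wider: REC8 was at 0.40 (SE 0.12), PTCH1 at -0.30 (SE 0.08), PIWIL4 at -0.27 (SE 0.10) and KIT at 0.23 (SE 0.09), while DHRS9 went from 0.58 to 0.36 (SE 0.11).

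**Figure D4:**
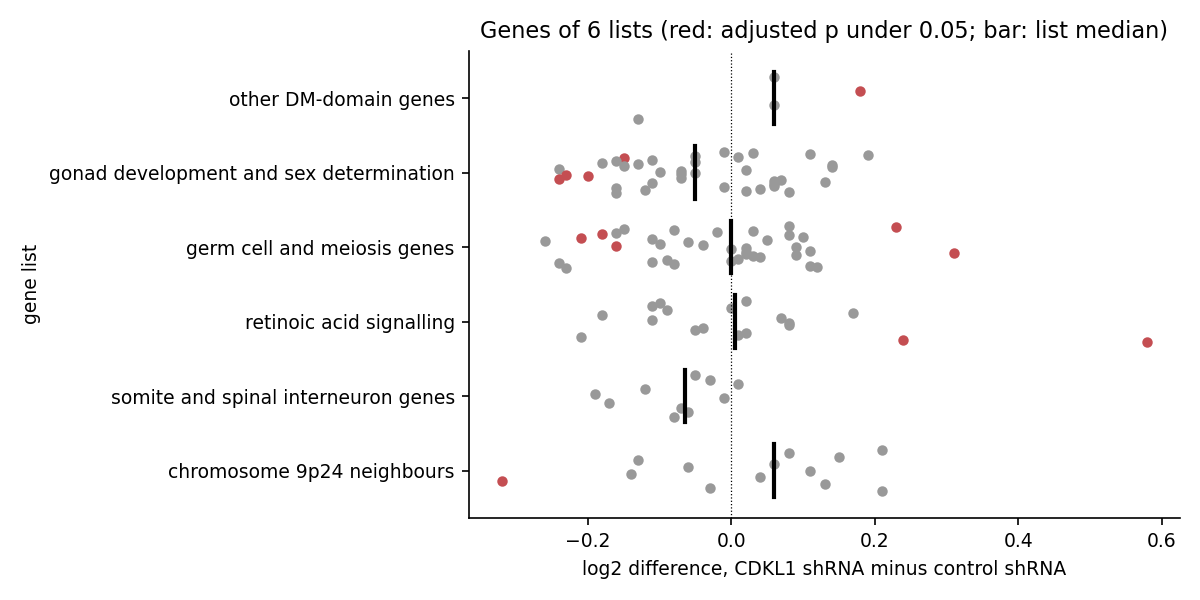
Log2 difference, CDKL1 shRNA minus control shRNA, of each measured gene (brightest probe set) in 6 lists; red points passed an adjusted p of 0.05 (limma over all genes), grey points did not, and black bars are list medians. The medians lie between -0.063 and 0.064, and the highest point is DHRS9 at 0.58.

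The genes whose pattern over the 6 arrays was nearest to that of DMRT1 11727900_at were found by the root mean square difference of their values after subtraction of each gene's own mean. They were KRTAP3-1, a hair keratin-associated protein gene, at a distance of 0.13 log2 units, the trypsin inhibitor gene SPINK1 at 0.30, the histone gene H2BC4 at 0.47, AHNAK2, which encodes a large scaffold protein, at 0.53, the tubulin gene TUBA1A at 0.58 and GTF2H3, a subunit gene of TFIIH, at 0.59. KRTAP3-1 was read at 8.91, 8.66 and 8.77 in control arrays and 11.15, 11.03 and 11.10 in CDKL1 shRNA arrays, a difference of 2.31 (SE 0.07), and both of its probe sets were higher, at 2.31 and 2.66. SPINK1 was read at 3.77, 4.16 and 4.34 against 6.33, 6.21 and 6.15, from a background-range control level. The differences of the other four lay between 1.29 and 1.51, but the second probe set of GTF2H3 stood at 0.14. Keratin-associated, histone and tubulin genes have close relatives, so their probe sets may include signal of other family members. Such nearness follows mainly from the size of the group difference and is given as a description.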

How the data were processed

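Total RNA of 6 samples of DLD1 cells was labelled with biotin and hybridised to Affymetrix arrays, per the labels' protocols. The deposited table holds log2 values that the authors made with RMA, per the submitters' processing notes; for its version and settings, nothing was given in the sources used here. RMA pulls changes of dim probe sets towards 0. Probe sets were named through the platform annotation: 44988 had 1 symbol, 1832 several and 2473 none, and no gene was named from several. The 102 control probe sets were kept out of the tests. Groups were taken from the sample titles. Whether the samples of a group came from separate infections is not stated, so errors measure the spread between these samples.

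Group differences were fitted with limma 3.58.1 in R 4.3.3 (two-sided, Benjamini-Hochberg) over 49293 probe sets, and over 18132 genes by their brightest probe set of 1 symbol. The fit was tested on simulated data. Members, lists and the rule for named genes were chosen with earlier results of these data known. Named were all DM-domain genes, up to 6 called genes per list, up to 3 uncalled textbook partners of DMRT1, and the 6 nearest patterns; uncalled neighbours, further uncalled list genes and genes of the probe set gap were chosen after their values were seen. Alternatives were leaving out each array, a replicate block, 2 further normalizations, an ACTB covariate, an intensity trend, a filter on dim features and the mean of probe sets.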

Additional observations from a re-analysis of the deposited data

How the results depend on the processing

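The DMRT1 11727900_at difference of 2.43 stayed at 2.35 to 2.50 with 1 array left out and at 2.32 to 2.44 under the block, further quantile normalization, median subtraction and the ACTB covariate. It was 2.06 (SE 0.52) with the covariate and without CDKL1 shRNA replicate 2, an alternative chosen after seeing the data, in which 0 genes passed (limma, 658 with an unadjusted p under 0.05). The other 8 DMRT probe sets stayed at -0.21 to 0.17 with 1 array left out. With the ACTB covariate on all 6 arrays DMRT2 11727727_x_at went from -0.15 to 0.13 (SE 0.09) and 11727726_a_at from -0.13 to -0.05 (SE 0.12), DMRT1 11751838_x_at from -0.11 to -0.24 (SE 0.14), and the other 5 moved by less than the spread between replicates. In the covariate fit without CDKL1 shRNA replicate 2 the one farthest from its plain value was 11762642_at, at -1.27 (SE 0.75). Same-numbered arrays showed no common deviation (r of -0.0289, -0.121 and 0.0699 over genes), and differently numbered pairs gave r of -0.102 to 0.125. With 3 arrays per group, such values cannot tell whether the replicate numbers stand for a pairing. With the replicate block the DMRT1 difference was 2.43, and 1803 genes and 3254 probe sets passed, against 3040 and 6221. The block left 0 other DM-domain, 2 gonad and 0 germ cell genes called (limma; 1 and 8 at an unadjusted p under 0.05 for the lists at 0). With the ACTB covariate 219 genes, 243 probe sets and 0 genes of every list passed (limma, 15 at an unadjusted p under 0.05). With 1 array left out the counts were 1633 to 2399 genes, 3013 to 4581 probe sets, 0 other DM-domain, 0 to 3 gonad, 1 to 5 germ cell, 1 to 2 retinoic acid and 1 neighbour. Median subtraction left 2 gonad and 2 germ cell genes. Quantile normalization left 0 other DM-domain genes and gave 1 somite gene; it turned the split of all called genes from 1627 higher and 1413 lower to 1542 and 1689. The mean of probe sets gave 0 other DM-domain, 2 gonad, 1 retinoic acid, 1 somite and 2 neighbour genes. The intensity trend called 4 neighbours and the dim filter 2. The causes were not tested. The number of arrays and the nearness of most DMRT probe sets to background limit all values.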
